A study of Mus musculus with 12 samples.

Results

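The distance that remained between reprogramming cells and their target cell was measured by setting cardiac fibroblasts after 3 days with the reprogramming factors MGT and a short hairpin RNA against Ptbp1 beside freshly isolated neonatal cardiomyocytes. The members are all genes with at least 1 CPM (counts per 1e+06 reads assigned to genes) in at least 2 of the 4 libraries compared, 2 of each kind, which gave 13637 of the 23423 genes in the table. Of these, 12094 reached the minimum in all 4 libraries, 1065 only in both cardiomyocyte libraries, 252 only in both day 3 libraries, and 226 in another combination. A gene that entered through only 1 of the groups had to differ between them.

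Hearts were taken from CD1 mouse pups on postnatal day 1.5. Fibroblasts were freed with enzymes and selected magnetically for Thy1, a surface protein, and cardiomyocytes were prepared with a commercial kit for neonatal hearts. The day 3 cells were such fibroblasts, plated on gelatin in serum medium and transduced the next day with a retrovirus carrying Mef2c, Gata4 and Tbx5 (MGT) plus a lentivirus carrying the Ptbp1 hairpin (shPtbp1). The other groups, each of 2 libraries of polyadenylated RNA, were fresh fibroblasts, day 3 fibroblasts with a control retrovirus (lacZ in the titles, an empty vector in other labels), day 3 MGT alone, and day 3 MGT with a non-targeting hairpin (shNT). All 4 day 3 groups had been plated, kept in serum and exposed to retrovirus, and the cardiomyocytes had not, so culture, virus, isolation method and cell type cannot be told apart in the comparison. Whether the replicates of a group were separate cultures or animals is not in the labels, and each p-value therefore measures only the spread between these libraries.

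MEF2C, GATA4 and TBX5 are transcription factors of the developing heart that bind enhancers of contractile genes, and together they turn some fibroblasts into cells resembling cardiomyocytes. A cardiomyocyte is defined by the sarcomere, by the calcium store that triggers each contraction, by the ion channels of its surface and by mitochondria that burn fatty acids. PTBP1 is an RNA-binding protein that represses exons used in muscle and neurons, and its relative PTBP2 is kept low by PTBP1 through the same route.

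Levels are given as scaled CPM, the deposited CPM divided by a size factor of each library, in the order of replicates. Differences are log2 differences of scaled CPM plus 0.5, written as shPtbp1 minus cardiomyocytes unless stated, with the standard error from limma; the added 0.5 understates differences of low genes. A gene was called where the limma p-value adjusted by Benjamini-Hochberg was under 0.05. Libraries held 49320859 to 94005212 assigned reads, so that 1 read was worth 0.0106 to 0.0203 CPM. A permutation of 2 libraries against 2 cannot give a two-sided p under 0.333, so every call rests on limma's spread, pooled over the 6 groups with 6 residual degrees of freedom.

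The labels were checked first on the targeted gene. Ptbp1 stood at 81.1 and 78.5 scaled CPM with shPtbp1, 354 and 361 in the libraries labelled as control vector, 359.8 and 365 with shNT and 419 and 421 in cardiomyocytes. Both shPtbp1 libraries were below all others, including the second, whose source label names Ptbp2 while its title and treatment name Ptbp1. The difference from cardiomyocytes was -2.39 (SE 0.034; limma, adjusted p = 1.27e-21). Ptbp2 stood at 133 and 136 with shPtbp1 against 53.4 and 53.04 in cardiomyocytes and 26.1 and 23.7 in those libraries, and was 1.33 higher than in cardiomyocytes on the log2 scale (adjusted p = 2.93e-15, limma). The hairpin's target was thus lower and its relative higher in the labelled libraries.

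The delivered factors stood above the target cell. Tbx5 stood at 1638 and 1755 scaled CPM with shPtbp1 against 14.4 and 16.1 in cardiomyocytes, Mef2c at 545 and 513 against 92.9 and 93.2, and Gata4 at 657 and 646 against 196 and 194. Reads from the delivered and the cell's own copy of these 3 genes cannot be told apart here. The libraries labelled as control vector also held these RNAs: Tbx5 stood there at 645 and 678, against 6.94 and 7.52 in fresh fibroblasts and 1770.4 and 1847 with MGT alone. Mef2c stood at 313 and 331 against 139 and 138 and 720.1 and 761, and Gata4 at 341 and 375 against 219 and 218 and 683 and 701. Both libraries labelled control lay between fresh fibroblasts and MGT for all 3 factors, and the source of those reads was not tested. They are called "labelled control" from here on, and a difference from them is a difference from cells that already held RNA of the factors.

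The cardiomyocyte libraries were not pure. Their 8 fibroblast markers took 0.908% and 0.918% of reads, against 1.79% and 1.74% in fresh fibroblasts, and their 14 endothelial markers took 0.689% and 0.691%. Neutrophil and erythroid markers were also present. The fresh fibroblasts in turn held cardiomyocyte markers at 0.167% and 0.17% of reads, against 1.67% and 1.59% in the cardiomyocyte libraries. Every difference given here is therefore from a preparation of the neonatal heart enriched for cardiomyocytes, and the part of other cells in it was not tested. In bulk RNA, fewer cells of a type and less RNA per cell cannot be told apart.

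Most genes differed. Relative to cardiomyocytes, 5780 of 13637 members were called higher (42.4%) and 6060 lower (44.4%), while 1797 were not called. The counts within each gene group below are to be read against these shares. The libraries of the groups did not overlap for 5774 of the higher genes and 6049 of the lower. Genes that entered through only 1 of the groups had to differ, and they are part of these counts and of those below. Called and at least 2-fold higher were 1612 (11.8%), and called and at least 2-fold lower were 2686 (19.7%). At least 4-fold, 429 were higher and 1236 lower, and at least 16-fold, 57 were higher and 304 lower. The excess of lower genes depended on the scaling: with quantile normalization 6652 were called higher and 5240 lower, 2174 and 2157 at least 2-fold, 650 and 984 at least 4-fold, and 83 and 254 at least 16-fold. With TMM scaling 6199 were called higher and 5697 lower, and 1792 and 2543 at least 2-fold. At 10 or more scaled CPM in both cardiomyocyte libraries and under 1 in both shPtbp1 libraries stood 201 genes, and 28 genes showed the reverse. The median over all members was -0.02.

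Over all members, the root mean square log2 distance from the mean of the cardiomyocyte libraries was 1.430 and 1.432 for the shPtbp1 libraries. It was 1.429 and 1.425 in the libraries labelled control, 1.434 and 1.437 with MGT alone, and 1.430 and 1.437 with shNT. The order of the day 3 groups depended on the processing: the mean of the shPtbp1 libraries was 1.404 against 1.416 for those labelled control with quantile normalization, 1.168 against 1.172 with a pseudocount of 2, and 1.442 against 1.444 with a filter at 5 CPM. Fresh fibroblasts stood at 0.728 and 0.731, nearer to cardiomyocytes than any cultured library. The cardiomyocyte libraries stood 0.122 from each other.

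**Figure D1:**
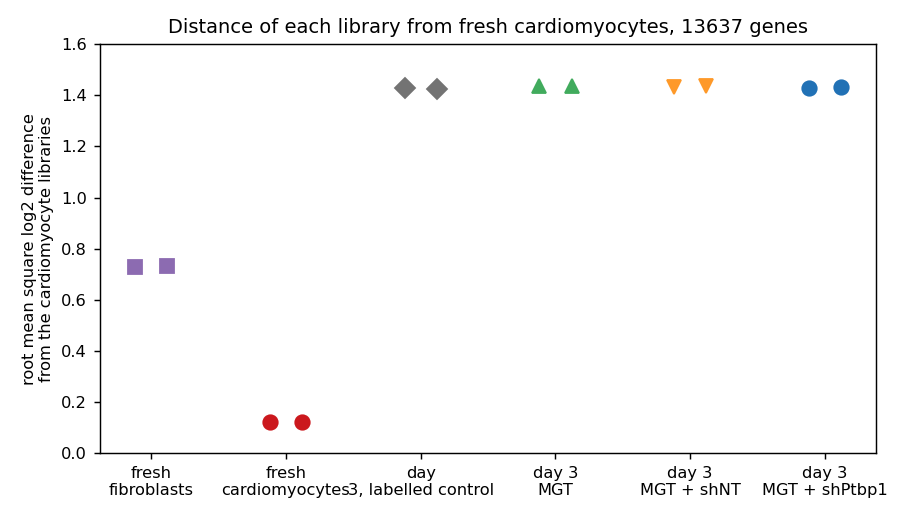
Root mean square log2 difference of each of the 12 libraries from the cardiomyocyte libraries over 13637 genes (vertical axis, log2 units of scaled CPM plus 0.5), with 1 point per library; each cardiomyocyte library is set against the other. The 8 day 3 libraries sit between 1.425 and 1.437, and the fresh fibroblasts at 0.728 and 0.731.

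The same members were also set against the libraries labelled control, a comparison that shares the shPtbp1 libraries with the main one. There, 4230 members were called higher (31.0%) and 3844 lower (28.2%) with shPtbp1. For each gene, the share of the gap covered is the shPtbp1 minus control difference divided by the cardiomyocyte minus control difference. Of 1621 genes at least 2-fold higher in cardiomyocytes than in the libraries labelled control, with at least 10 scaled CPM in cardiomyocytes, 635 were called above the libraries labelled control with shPtbp1 and 428 below it. A gap is thus counted from cells that already held factor RNA. The median share covered was 3.10%, with quartiles of -9.20% and 17.1%. At least 50% of the gap was covered by 77 of these genes and all of it by 5. On the other side, 1308 genes were at least 2-fold lower in cardiomyocytes than in the libraries labelled control, with at least 10 scaled CPM there. Of these, 630 were called below the latter with shPtbp1 and 349 above, the median share was 6.14%, 195 covered at least 50%, and 63 covered the whole gap.

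The gap was therefore also measured from fresh fibroblasts, leaving out the libraries labelled control, a choice made after their factor levels were seen. The set higher in cardiomyocytes held 755 genes, called and at least 2-fold above fresh fibroblasts, with at least 10 scaled CPM in cardiomyocytes. Of these, 432 were called above fresh fibroblasts in the shPtbp1 libraries and 270 below them. Their median share covered was 23.4%, with quartiles of -43.0% and 68.1%, and 252 covered at least 50%. Of 358 genes at least 2-fold lower in cardiomyocytes, 271 were below fresh fibroblasts and 72 above, with a median share of 103%. These differences from fresh fibroblasts also hold whatever 3 days of culture changed, which cannot be told apart from the factors.

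**Figure D2:**
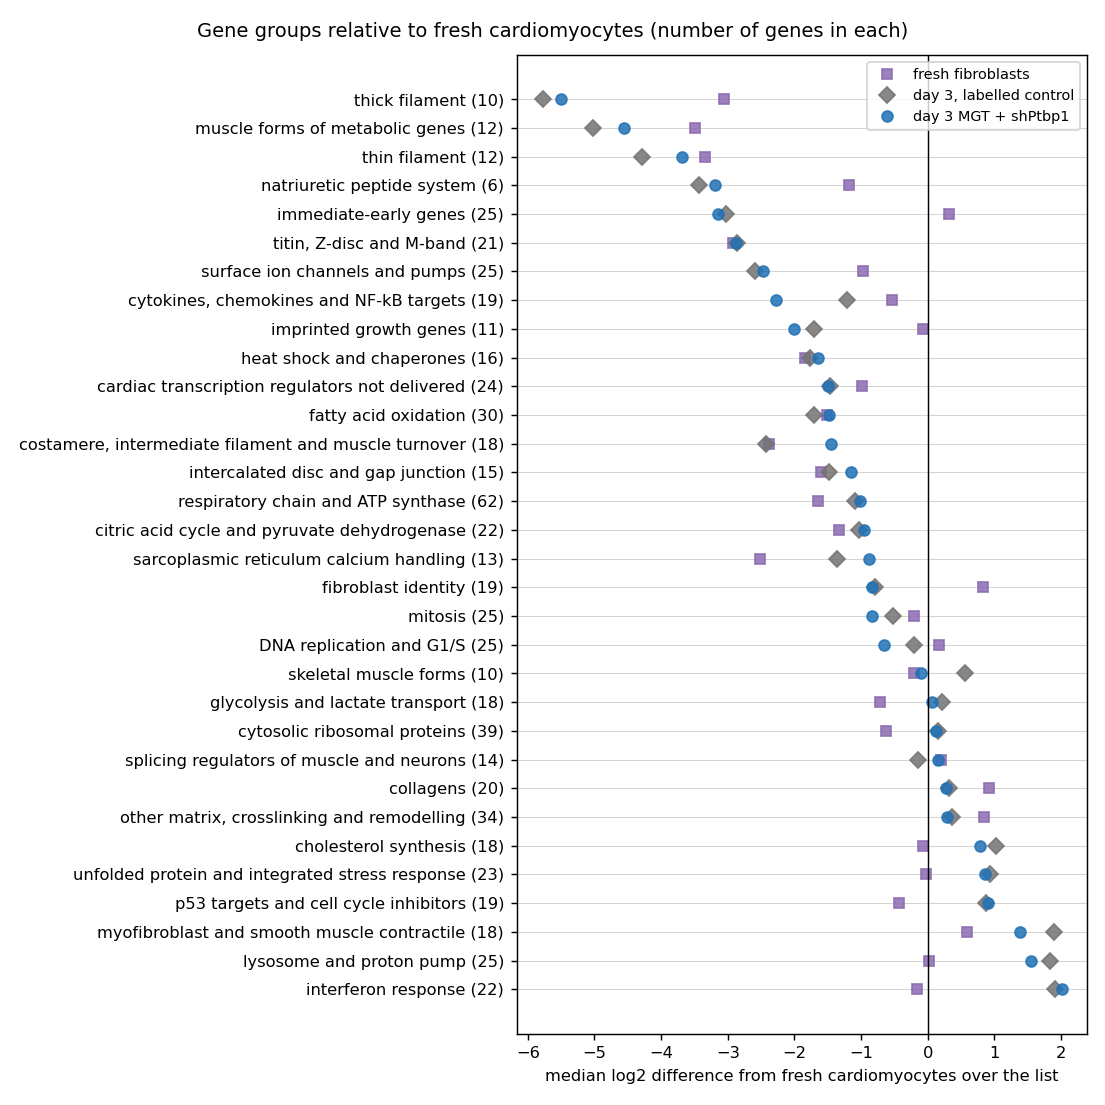
Median log2 difference from fresh cardiomyocytes (horizontal axis) for each gene group, with the number of member genes in brackets; squares are fresh fibroblasts, diamonds the day 3 libraries labelled control and circles day 3 MGT plus shPtbp1. With shPtbp1, thick filament genes lie at -5.51 and interferon response genes at 2.01.

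Most thick filament genes were far below the target. The 10 thick filament genes were myosin heavy and light chains, myosin-binding proteins and a light chain kinase. Of these, 8 were lower than in cardiomyocytes and 2 higher. Their median was -5.51, against -5.78 in the libraries labelled control and -3.05 in fresh fibroblasts. In this group, 7 genes were above the libraries labelled control and 1 below them. Myl2, the regulatory light chain of the ventricle, stood at 6.84 and 7.18 scaled CPM with shPtbp1 and 3388 and 3186 in cardiomyocytes, and Myl3, the essential light chain of the ventricle, at 1.54 and 1.58 with shPtbp1 and 1094 and 1067 in cardiomyocytes. Both genes were below the level of fresh fibroblasts too, which held 242 and 249 for Myl2 and 73.3 and 72.2 for Myl3, and neither overlapped between groups. The differences were -8.77 (SE 0.077) and -9.03 (SE 0.091), with adjusted p of 1.39e-24 and 1.05e-23 (limma). In mm10, Myl2 lies at chr5:122100951-122113472 on the plus strand and Myl3 at chr9:110741861-110769798 on the plus strand, both protein-coding.

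The main heavy chains were below the target by less than these light chains. Myh6, the fast alpha heavy chain of the mouse heart, stood at 86.6 and 83.0 against 5781 and 5466, and Myh7, the slow beta heavy chain, at 10.2 and 9.47 against 1849 and 1734. Both were above the libraries labelled control, at 47.2 and 50.5 for Myh6 and 5.40 and 5.74 for Myh7, without overlap. They covered 11.6% and 9.36% of that gap. Reads of the near-identical myosin heavy chain genes may be split by the counting, so single heavy chain values are uncertain.

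The atrial light chains went the other way. Myl4, the essential light chain of the atrium and of the embryonic heart, stood at 1751 and 1905 with shPtbp1 and 195 and 185 in cardiomyocytes, a difference of 3.26 (SE 0.044; adjusted p = 6.22e-22, limma). Myl7, the regulatory light chain of the atrium, stood at 392 and 429 with shPtbp1 and 220.0 and 207 in cardiomyocytes. Every shPtbp1 library was above every cardiomyocyte library for both. The libraries labelled control already held 880.0 and 908 for Myl4 and 230.5 and 245 for Myl7, against 27.2 and 27.7 for Myl4 and 17.1 and 16.9 for Myl7 in fresh fibroblasts.

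Of 12 thin filament genes, 9 were lower and 3 higher, with a median of -3.69 against -4.29 in the libraries labelled control. The median was -3.57 with MGT alone and -3.85 with shNT. The troponin subunits did not move as 1 unit. Tnnt2, which ties troponin to tropomyosin, stood at 3795 and 4126 with shPtbp1 and 2093 and 1982 in cardiomyocytes, above the target by 0.96 (SE 0.059; adjusted p = 1.02e-11, limma), and at 2423 and 2187 in the libraries labelled control. Tnni3, the adult cardiac inhibitory subunit, stood at 31.7 and 35.7 against 789 and 791, and Tnnc1, the calcium-binding subunit, at 19.3 and 21.1 against 761 and 742. These subunits were -4.53 and -5.18 from the target, though Tnni3 was 1.97 above the libraries labelled control (8.79 and 7.68). Tnni1, the slow skeletal form that the young heart uses, stood at 6.47 and 6.07 against 586 and 551. Tpm1, the main cardiac tropomyosin gene, stood at 3345 and 3383 against 1635 and 1579, again above the target and already high in the libraries labelled control at 2727 and 2539.

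Actc1, the alpha actin of the heart, stood at 142 and 157 with shPtbp1 and 2849.7 and 2822 in cardiomyocytes, without overlap (difference -4.24, SE 0.046; adjusted p = 3.49e-23, limma). It was 0.60 above the libraries labelled control, which held 94.2 and 104. Its promoter is shown because serum response factor binding sites (CArG boxes) are the classic element of muscle actin genes; the capitals mark the CArG match found by text search in the 250 bases before the RefSeq start, GRCm38.p6 chr2:114052876-114053125, minus strand, written 5′ to 3′.
Actc1: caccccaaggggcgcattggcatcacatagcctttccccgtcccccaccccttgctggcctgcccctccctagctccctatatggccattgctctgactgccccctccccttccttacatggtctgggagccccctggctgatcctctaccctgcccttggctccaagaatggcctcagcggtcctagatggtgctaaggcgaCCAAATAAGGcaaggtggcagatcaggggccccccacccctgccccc
A motif may match on either strand and matches may overlap. In windows from 250 bases before to 50 after the start, a CArG match on either strand was found in 2 of the 10 thin filament genes with a window, Acta1 and Actc1 (20%), and in 1.34% of the 10073 members with a window. A CArG match was also found in 2 of 10 thick filament genes (20%) and 3 of 16 titin, Z-disc and M-band genes (18.8%). Such a match is a description of letters and not a measured site.

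**Figure D3:**
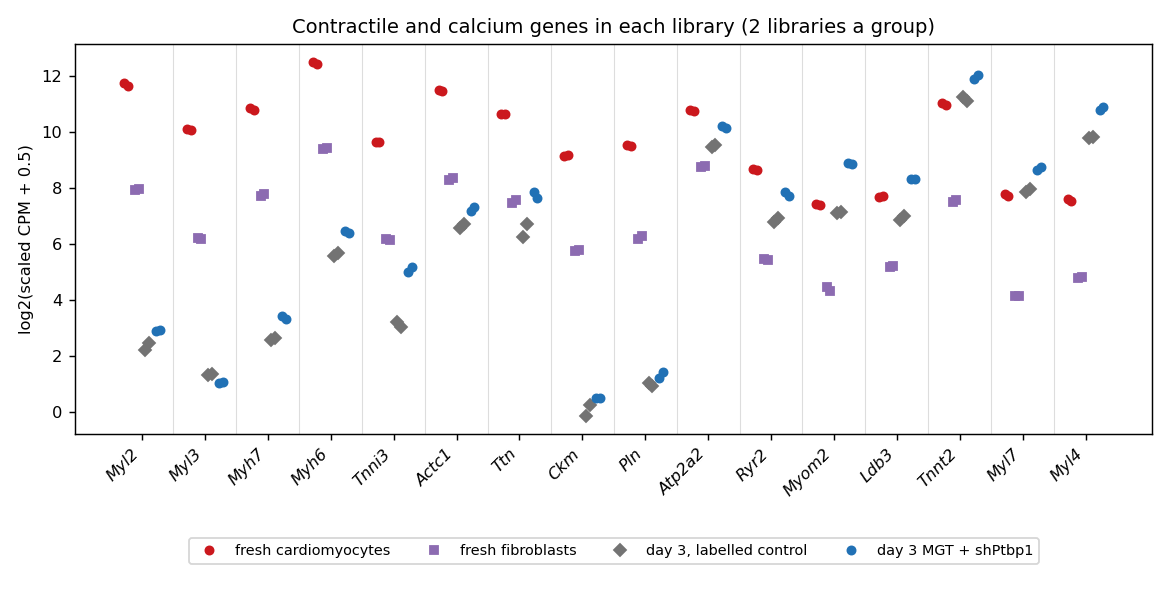
Levels of 16 contractile, calcium-handling and energy genes in each library (vertical axis, log2 of scaled CPM plus 0.5), with 1 point per library for fresh cardiomyocytes, fresh fibroblasts, the day 3 libraries labelled control and day 3 MGT plus shPtbp1. Tnnt2, Myl7, Myl4, Myom2 and Ldb3 with shPtbp1 are above the cardiomyocytes, and Myl2, Myl3, Pln and Ckm are the farthest below.

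Of 21 genes of titin, the Z-disc and the M-band, the parts that align the filaments, 14 were lower, 6 higher and 1 was not called, with a median of -2.88 against -2.86 in the libraries labelled control, and 13 were above the libraries labelled control. The median was -2.59 with MGT alone and -1.57 with shNT, both nearer to the target. Ttn, the spring that spans the sarcomere, stood at 232 and 198 against 1577 and 1593 in cardiomyocytes and 74.4 and 103 in the libraries labelled control, so it was -2.88 from the target (SE 0.099; adjusted p = 8.72e-16, limma) and covered 30.9% of the gap. Actn2, the sarcomeric alpha-actinin of the Z-disc, stood at 13.1 and 13.1 against 470.2 and 446. Neither gene overlapped between the groups.

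Some genes of the M-band and Z-disc reached or passed the target level. Myom2, an M-band crosslinker, stood at 468 and 465 against 169.8 and 165 in cardiomyocytes and 136 and 142 in the libraries labelled control. Ldb3, which binds alpha-actinin at the Z-disc, stood at 318 and 319.6 with shPtbp1, 204 and 206 in cardiomyocytes and 115 and 127 in the libraries labelled control. Both were above the target in both libraries, by 1.47 and 0.64. Myom1 was slightly below it at 286 and 280.0 against 318 and 301 (difference -0.13; adjusted p = 0.00483, limma), and Obsl1, the obscurin-like linker, was not called (0.05, 95% interval -0.03 to 0.13).

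The Ttn promoter is shown because MEF2C is 1 of the delivered factors and its window holds a match to the MEF2 motif; the capitals mark that match in GRCm38.p6 chr2:76982548-76982797, minus strand, 5′ to 3′.
Ttn: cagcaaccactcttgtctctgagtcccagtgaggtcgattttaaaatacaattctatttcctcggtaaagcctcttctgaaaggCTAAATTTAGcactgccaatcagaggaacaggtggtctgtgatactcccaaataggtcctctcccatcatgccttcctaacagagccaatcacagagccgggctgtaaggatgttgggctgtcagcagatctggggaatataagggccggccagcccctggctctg
A MEF2 match on either strand was found in 5 of 16 genes of this group with a window (31.2%), namely Fhl2, Myoz2, Synpo2l, Ttn and Xirp2, and in 1.79% of members with a window. It was found in 1 of 10 thick filament genes and in 0 of 10 thin filament, 0 of 8 intercalated disc and 0 of 10 cardiomyocyte marker genes with a window. Other groups had higher shares, with 2 of 7 skeletal muscle forms (28.6%), 4 of 20 immediate-early genes (20%) and 2 of 14 costamere genes (14.3%). Of the 5 matched genes in the titin, Z-disc and M-band group, Fhl2 was above the target (1.87). Synpo2l (-0.18), Ttn (-2.88), Xirp2 (-3.65) and Myoz2 (-3.79) were below it.

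Pairs of related genes were compared as ratios within each library, so that the scaling bears on them only through the added 0.5. Some pairs set forms of the heart against each other, such as ventricular and atrial light chains. Others set a muscle form against that of other cells. The log2 ratio of Myl3 to Myl4 was -9.79 with shPtbp1, 2.51 in cardiomyocytes and -8.48 in the libraries labelled control. That of Myl2 to Myl7 was -5.77, 3.94 and -5.55, and that of Actc1 to Acta2, the smooth muscle actin, was -5.46, 3.10 and -5.79. In each of these pairs the ratio was below 0 in the day 3 cells and above 0 in fresh cardiomyocytes. Actn2 to Actn1, the actinin of other cells, was -7.40 in the libraries labelled control and -6.05 with shPtbp1, against 1.36 in cardiomyocytes. Tnni3 to Tnni1 differed in the other direction, at 2.33 with shPtbp1, 0.47 in cardiomyocytes and 0.62 in the libraries labelled control, and Myh6 to Myh7 was 3.05, 1.65 and 3.02.

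**Figure D4:**
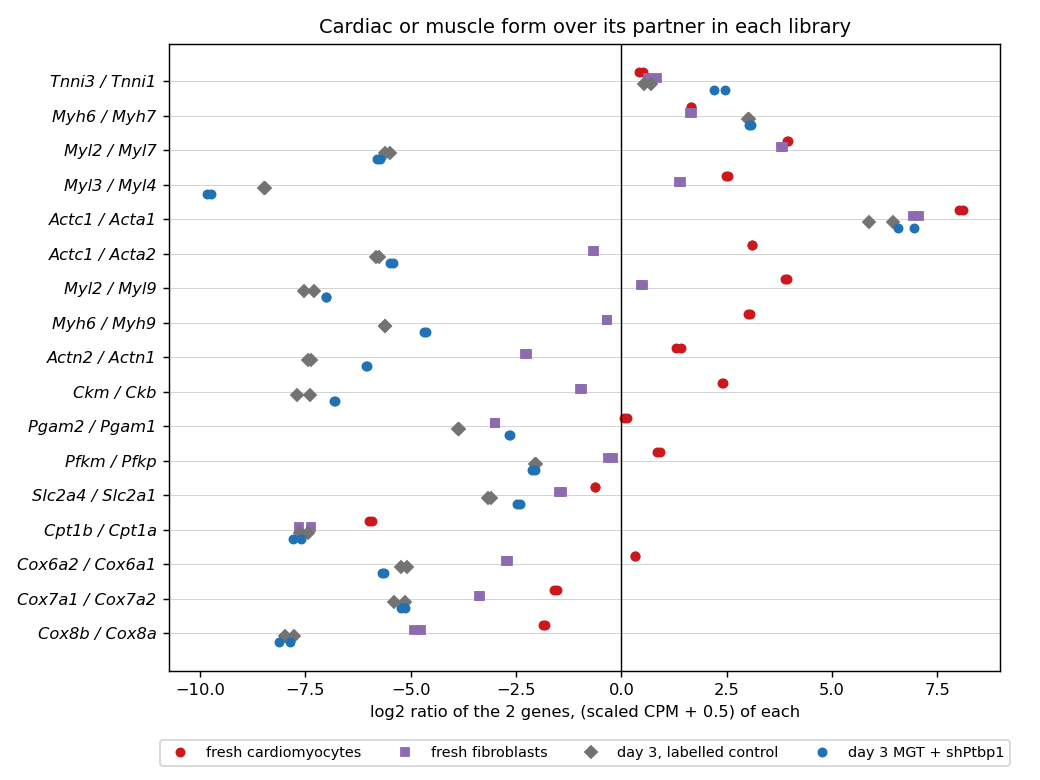
Log2 ratio of the first to the second gene of 17 pairs in each library (horizontal axis), for fresh cardiomyocytes, fresh fibroblasts, the day 3 libraries labelled control and day 3 MGT plus shPtbp1. The Myl3 to Myl4 ratio shows the widest gap, 2.51 in cardiomyocytes against -9.79 with shPtbp1, and the Tnni3 to Tnni1 ratio lies above that of the cardiomyocytes.

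Cell contact and calcium handling genes had medians nearer to 0. Of 15 genes of the intercalated disc and gap junction, the contacts between heart muscle cells, 11 were lower, 3 higher and 1 not called, with a median of -1.15. Dsp, the desmoplakin that anchors filaments at the desmosome, stood at 294 and 265 with shPtbp1, 282 and 282 in cardiomyocytes and 128 and 127 in the libraries labelled control. The shPtbp1 libraries lay on both sides of the cardiomyocytes (difference -0.01, 95% interval -0.10 to 0.08). Cdh2, the adherens cadherin, was above the target at 644 and 650.1 against 140.1 and 134, while Dsg2, the desmosomal cadherin, stood at 1.45 and 1.85 against 40.98 and 38.4 and Gja1, the main ventricular connexin, at 123 and 124 against 256 and 263.

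Of 13 genes of sarcoplasmic reticulum calcium handling, 10 were lower and 3 higher, with a median of -0.89 against -1.35 in the libraries labelled control and -2.52 in fresh fibroblasts, and 11 were called above the libraries labelled control and 0 below. Ryr2, the release channel, stood at 228 and 208 against 406 and 400.3 in cardiomyocytes and 108 and 122 in the libraries labelled control. Casq2, which stores calcium, stood at 249 and 257 against 324 and 314 and 122 and 127, and Atp2a2, the calcium pump, at 1174 and 1131 against 1729 and 1709 and 698 and 729.9. All 3 lay between the libraries labelled control and the target without overlap and covered 50.9%, 75.6% and 54.5% of the gap. Pln, the phospholamban that restrains the pump, did not follow: it stood at 1.79 and 2.17 against 742 and 721, a difference of -8.21 (SE 0.098; adjusted p = 1.13e-22, limma). Jph2, which holds the store to the surface membrane, was above the target at 378 and 384 against 95.9 and 95.0.

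Most surface channels were below the target. Of 25 ion channels and pumps, 20 were lower and 5 higher, 19 of the former at least 2-fold. Their median was -2.48 against -2.59 in the libraries labelled control and -0.97 in fresh fibroblasts. The median was -2.35 with MGT alone and -2.41 with shNT. That with shPtbp1 ranged from -3.39 to -1.52 over the 17 alternative settings. Kcnj2, the inward rectifier that sets the resting potential, stood at 1.92 and 2.58 against 25.1 and 23.9. Kcnq1, a repolarising potassium channel, stood at 0.178 and 0.196 against 24.0 and 23.8, and Abcc9, the receptor subunit of the ATP-sensitive channel, at 2.76 and 2.41 against 217 and 213. Kcnj2 and Abcc9 did not overlap between groups. Kcnq1 entered through the cardiomyocyte libraries only, so it could only be lower, and the count of lower channels includes it. Abcc9 was as high in fresh fibroblasts (271 and 275) and is also a pericyte gene. Cacna2d1, a calcium channel subunit, was higher at 62.6 and 62.2 against 45.9 and 47.0.

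Of 24 cardiac transcription regulators that were not delivered, 20 were lower, 3 higher and 1 not called, with a median of -1.495 against -1.47 in the libraries labelled control, and 14 were above the libraries labelled control and 0 below. The shPtbp1 median ranged from -2.05 to -0.65 over the 17 alternative settings. The median was -1.31 with MGT alone and -1.25 with shNT, both nearer to the target. Nkx2-5, the homeobox factor of the heart field and of working muscle, stood at 0.267 and 0.322 with shPtbp1, 24.6 and 25.1 in cardiomyocytes and 0.334 and 0.350 in the libraries labelled control. Irx4, a factor of the ventricle, stood at 0.0762 and 0.0420 against 27.4 and 27.2, and Smyd1, a muscle methyltransferase, at 2.58 and 3.14 against 153 and 143. Smyd1 was under the target without overlap. Nkx2-5 and Irx4 entered through the cardiomyocyte libraries only, so they could only be lower, and the count of 20 includes them. Neither Nkx2-5 (adjusted p = 0.570) nor Irx4 (adjusted p = 0.438) was called against the libraries labelled control by limma. Hand2 was not called against the target at 40.8 and 43.1 against 44.0 and 42.2 (95% interval -0.15 to 0.07). Ankrd1, a stretch-responsive cofactor, was above it at 2008 and 2064 against 302 and 290.4, as it was in the libraries labelled control (1313 and 1302).

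In the natriuretic peptide system, 4 of 6 genes were lower, 1 higher and 1 not called. The hormones Nppa and Nppb stood at 14.1 and 14.6 against 227 and 212 and 0.978 and 0.967 against 38.5 and 36.7. Corin, the protease that activates the Nppa product, stood at 37.7 and 39.1 with shPtbp1, 41.7 and 39.6 in cardiomyocytes, 4.48 and 4.58 in the libraries labelled control and 16.7 and 15.2 with shNT. Its libraries lay at or just under those of the target and far above those labelled control (difference from the target -0.08, 95% interval -0.23 to 0.07; difference from the libraries labelled control 2.95, adjusted p = 5.70e-17, limma). Nppa in turn stood at 14.5 and 15.5 in the libraries labelled control.

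Of 18 genes of the costamere, intermediate filaments and muscle protein turnover, 12 were lower, 5 higher and 1 not called, and 13 were above the libraries labelled control. The group's median was -1.45 with shPtbp1 against -2.43 in the libraries labelled control. Txlnb, a muscle taxilin, stood at 71.8 and 71.8 with shPtbp1, 41.8 and 40.8 in cardiomyocytes, 3.98 and 3.35 in the libraries labelled control and 11.3 and 11.7 with shNT, and so stood above the target. Des, the muscle intermediate filament, stood at 607 and 655 against 401 and 388, and Trim63, a ubiquitin ligase of the sarcomere, at 32.8 and 32.2 against 52.9 and 47.9 and 13.03 and 13.6 in the libraries labelled control. Dmd, the dystrophin gene, was not called (0.05, 95% interval -0.05 to 0.14).

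Among 14 splicing regulators of muscle and neurons, 8 were higher and 6 lower than in cardiomyocytes, with a median of 0.15 (0.0069 to 0.22 over the alternative settings). Rbm20, which splices titin, stood at 21.7 and 20.6 against 90.0 and 86.9 in cardiomyocytes and 12.1 and 14.5 in the libraries labelled control. Rbm24, a muscle splicing activator, stood at 2.67 and 3.41 against 70.6 and 68.9 and 1.20 and 1.24. Both were under the target without overlap and above the libraries labelled control. Mbnl1, of the muscleblind family, was higher than the target at 139 and 138 against 117 and 123. Of 18 skeletal muscle forms only 10 were members, 5 higher and 5 lower. Myh1, a fast skeletal heavy chain, stood at 62.0 and 60.5 against 0.214 and 0.197 and at 63.5 and 63.5 in the libraries labelled control, where the difference from shPtbp1 was not called (adjusted p = 0.587, limma).

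Most energy genes were lower. The muscle forms of metabolic genes were lower in 12 of 12, with a median of -4.56 against -5.02 in the libraries labelled control. Ckm, the muscle creatine kinase that buffers ATP, stood at 0.902 and 0.925 against 565 and 569 scaled CPM (difference -8.65, SE 0.12; adjusted p = 8.10e-22, limma). Mb, the oxygen-binding myoglobin, stood at 19.2 and 19.9 against 1018 and 981, and at 6.61 and 5.86 in the libraries labelled control. Pgam2, the muscle phosphoglycerate mutase, was nearest, at 48.9 and 51.9 against 119.8 and 111.

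Fatty acid oxidation genes were lower in 27 of 30, higher in 2 and not called in 1, with a median of -1.49 against -1.70 in the libraries labelled control and -1.52 in fresh fibroblasts. Ppargc1a, the coactivator that drives mitochondrial genes, stood at 1.17 and 1.14 against 37.8 and 35.4. Cd36, which takes up fatty acids, stood at 153 and 151 against 1050.2 and 1058 and was also -0.67 from the libraries labelled control (248 and 237). Lpl, the lipase that frees them, was not called at 533 and 509 against 536 and 521 (95% interval of the difference -0.10 to 0.06).

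The citric acid cycle and pyruvate dehydrogenase were lower in 21 of 22 genes (median -0.96), and the respiratory chain and ATP synthase in 58 of 62 (median -1.02, range -2.14 to 0.61), with 2 higher. Idh2, a mitochondrial isocitrate dehydrogenase, stood at 115 and 120.3 against 753 and 722, and Atp5g1, a ring subunit of ATP synthase, at 57.1 and 60.9 against 262 and 260.5. In the respiratory group 35 of 62 were above the libraries labelled control and 11 below it. Glycolysis genes were split, with 7 of 18 higher, 7 lower and 4 not called. The sign of that group's median (0.06) flips without scaling and with quantile normalization. Ldhb, the lactate dehydrogenase of oxidative tissue, stood at 48.4 and 56.1 against 370.1 and 353, and Hk2, an inducible hexokinase, at 79.3 and 74.9 against 37.4 and 33.3.

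Matrix genes differed in both directions, as did all members (42.4% higher and 44.4% lower). Of 20 collagens, 10 were higher, 9 lower and 1 not called, with a median of 0.27 (0.063 with quantile normalization) against 0.92 in fresh fibroblasts. Col8a1, a short-chain collagen of remodelling tissue, stood at 789.8 and 765 against 10.8 and 11.3 in cardiomyocytes and 29.6 and 29.9 in fresh fibroblasts, while Col15a1, of basement membranes, stood at 88.8 and 91.2 against 1388 and 1363 and 2224 and 2198. Col3a1, a fibrillar collagen, stood at 2579 and 2222 with shPtbp1, below both 9225 and 9049 in cardiomyocytes and 16786 and 16357 in fresh fibroblasts. Day 3 was thus above both fresh preparations for Col8a1 and below both for the other collagens named. Of the 34 other matrix genes, 19 were higher and 14 lower.

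Of 19 fibroblast identity genes, 10 were lower, 8 higher and 1 not called, against 44.4% lower and 42.4% higher over all members. Their median was -0.84 (-0.20 with quantile normalization) against 0.82 in fresh fibroblasts. Pi16, a marker of resting fibroblasts, stood at 0.292 and 0.336 against 52.6 and 49.7 and 77.0 and 75.4. S100a4 stood at 392 and 429 against 8.22 and 7.54 and 10.98 and 11.8. Contractile genes of myofibroblasts and smooth muscle were higher in 14 of 18 and lower in 3, with a median of 1.38 against 1.89 in the libraries labelled control. Acta2 stood at 6391 and 6801 against 329 and 329.9, Tagln, an actin-binding protein of smooth muscle, at 1674 and 1848 against 61.4 and 60.2, and the fresh fibroblasts held 491 and 505 and 112 and 114. Relative to the libraries labelled control, Tagln was -0.20 and Acta2 0.26, both called.

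**Figure D5:**
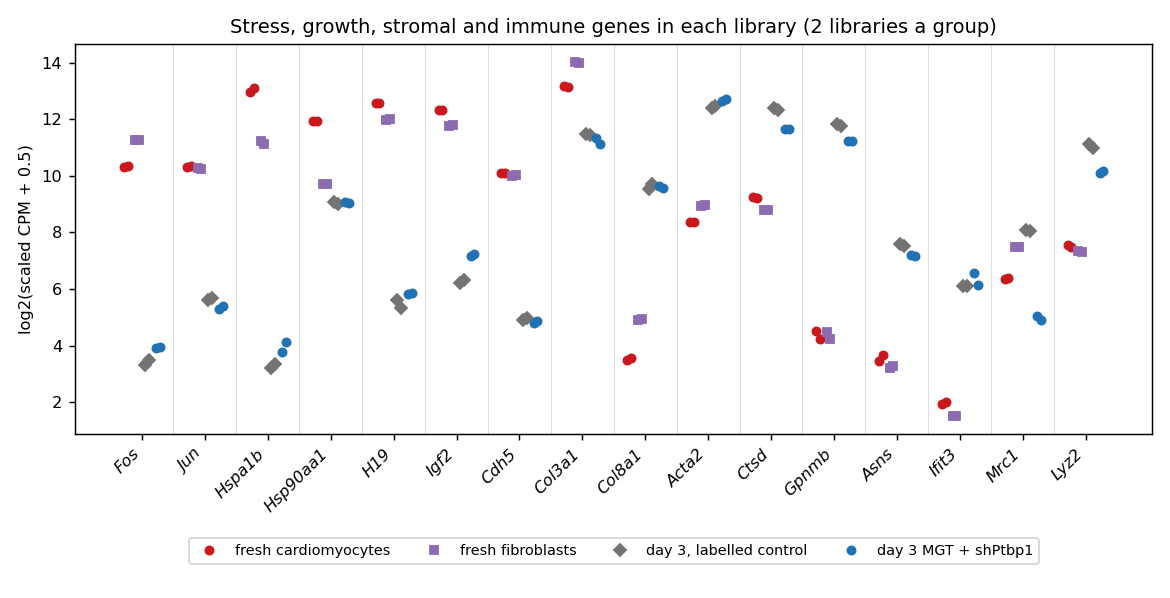
Levels of 16 genes of early response, heat shock, imprinting, vessel, matrix, lysosome, stress, interferon and macrophages in each library (vertical axis, log2 of scaled CPM plus 0.5), for fresh cardiomyocytes, fresh fibroblasts, the day 3 libraries labelled control and day 3 MGT plus shPtbp1. Fos and Hspa1b are high in both fresh preparations and low in both day 3 groups, and Acta2 and Gpnmb are the reverse.

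Cell cycle genes were lower than in cardiomyocytes and lower than in the libraries labelled control. DNA replication genes were lower in 22 of 25 and higher in 0, with a median of -0.66 against -0.21 in the libraries labelled control, and 23 were below the libraries labelled control. Mitosis genes were lower in 23 of 25, with a median of -0.83 against -0.53, and 19 were below the libraries labelled control. Mki67, a protein of dividing cells, stood at 171 and 164 with shPtbp1, 409.6 and 411 in cardiomyocytes and 242 and 246 in the libraries labelled control. Cdc20, an activator of the anaphase complex, stood at 24.9 and 25.4 against 70.9 and 73.1 and 32.7 and 35.6. Both genes were lowest with shPtbp1 among the 3 groups, without overlap. The group medians with MGT alone and shNT lay between those of the libraries labelled control and shPtbp1. They were -0.43 and -0.57 for DNA replication and -0.64 and -0.59 for mitosis.

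The Mki67 promoter is shown because the cell cycle homology region, with the letters TTTGAA, is an element known from genes of mitosis, repressed through it outside division; capitals mark 2 matches in GRCm38.p6 chr7:135716380-135716629, minus strand, 5′ to 3′.
Mki67: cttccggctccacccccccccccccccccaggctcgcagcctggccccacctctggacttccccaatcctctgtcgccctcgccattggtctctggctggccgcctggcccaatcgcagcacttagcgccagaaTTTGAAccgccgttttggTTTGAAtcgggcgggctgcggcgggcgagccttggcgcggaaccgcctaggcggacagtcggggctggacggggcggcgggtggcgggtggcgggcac
A TTTGAA match on either strand was found in 16 of 21 mitosis genes with a window (76.2%) and in 11.5% of members. The p53 targets and cell cycle inhibitors were higher in 12 of 19 and lower in 7. Ccng1, a cyclin induced by p53, stood at 651 and 658 against 91.2 and 90.1, and Cdkn1c, an imprinted inhibitor of cyclin-dependent kinases, at 7.88 and 8.09 against 120.1 and 121.

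Some of the widest gaps lay in genes of acute stress, which the fresh preparations held at high levels. Immediate-early genes, switched on within minutes of a stimulus, were lower in 25 of 25, with a median of -3.15 against -3.02 in the libraries labelled control and 0.32 in fresh fibroblasts. They took 1.18% and 1.21% of reads in cardiomyocytes, 1.72% and 1.71% in fresh fibroblasts, and 0.144% and 0.147% with shPtbp1. Fos stood at 14.4 and 14.8 with shPtbp1, 1282 and 1299.8 in cardiomyocytes and 2456 and 2436 in fresh fibroblasts, and Jun, its partner in the AP-1 factor, at 38.4 and 42.2, 1267 and 1315 and 1252 and 1205. Both were low in all day 3 libraries. The part of tissue dissociation in these values was not tested. Egr1, a zinc finger factor, stood at 294 and 306 against 2642 and 2687 and 61.1 and 62.3 in the libraries labelled control, so it was 2.27 above the libraries labelled control.

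Heat shock and chaperone genes were lower in 14 of 16 and higher in 2, with a median of -1.64 against -1.76 in the libraries labelled control, and took 3.45% and 3.66% of reads in cardiomyocytes against 0.630% and 0.648% with shPtbp1. Hspa1b, an inducible chaperone of the HSP70 family, stood at 13.3 and 17.0 with shPtbp1, 7951 and 8708 in cardiomyocytes and 2405 and 2226 in fresh fibroblasts. This was the lowest value of all members, -9.07 (SE 0.088; adjusted p = 5.49e-24, limma), and its near-identical neighbour Hspa1a differed by -8.96. How reads were divided between these copies is uncertain, and their upstream windows were identical at 247 of 250 positions. The genes lie at chr17:34956436-34959238 and chr17:34969190-34972156, both on the minus strand and protein-coding. Exceptions were Cryab, a small heat shock protein of muscle, at 541 and 615 against 319.8 and 300.1, and Hspb7, another, at 586 and 625 against 458 and 446.

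The Hspa1b promoter is shown for its heat shock element, with the letters GAANNTTC in capitals, in GRCm38.p6 chr17:34959239-34959488, minus strand, 5′ to 3′.
Hspa1b: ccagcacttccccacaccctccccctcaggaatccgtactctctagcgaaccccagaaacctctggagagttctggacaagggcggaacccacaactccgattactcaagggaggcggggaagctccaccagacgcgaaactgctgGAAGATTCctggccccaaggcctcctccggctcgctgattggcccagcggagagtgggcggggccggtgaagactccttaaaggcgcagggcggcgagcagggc
A match on either strand was found in 8 of 12 heat shock genes with a window (66.7%) and in 5.69% of members.

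In the unfolded protein and integrated stress response, 18 of 23 genes were higher, 4 lower and 1 not called, with a median of 0.86 against 0.93 in the libraries labelled control. Asns, which makes asparagine, stood at 146 and 143 against 10.5 and 12.2 in cardiomyocytes and 192 and 182 in the libraries labelled control, and Phgdh, the first step of serine synthesis, at 205 and 197 against 21.3 and 19.3 and 268 and 283. Both genes lay between the target and the libraries labelled control. Cytokines, chemokines and NF-kB targets were lower in 12 of 19, higher in 4 and not called in 3, with a median of -2.28 against -1.21 in the libraries labelled control, and 16 were below the libraries labelled control. Il1b stood at 0.0381 and 0.126 against 41.4 and 39.0, and Cxcl1, a chemokine for neutrophils, at 3.39 and 3.38 against 136 and 127.

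In the interferon response, 18 of 22 genes were higher and 4 lower, with a median of 2.01 against 1.90 in the libraries labelled control and -0.16 in fresh fibroblasts. Ifit1, which binds foreign RNA, stood at 82.4 and 58.1 with shPtbp1, 4.12 and 3.83 in cardiomyocytes, 54.2 and 59.8 in the libraries labelled control and 0.522 and 0.652 in fresh fibroblasts. The shPtbp1 and other day 3 libraries were all above the fresh ones (shPtbp1 minus cardiomyocytes 3.96, SE 0.13; adjusted p = 2.76e-16, limma), and the shPtbp1 libraries overlapped those labelled control (adjusted p = 0.0662). The part of viral transduction was not tested, since all cultured groups received virus.

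The Ifit1 promoter is shown for 2 matches to the interferon-stimulated response element, GAAANNGAAA, here on the opposite strand and in capitals, in GRCm38.p6 chr19:34640639-34640888, plus strand, 5′ to 3′.
Ifit1: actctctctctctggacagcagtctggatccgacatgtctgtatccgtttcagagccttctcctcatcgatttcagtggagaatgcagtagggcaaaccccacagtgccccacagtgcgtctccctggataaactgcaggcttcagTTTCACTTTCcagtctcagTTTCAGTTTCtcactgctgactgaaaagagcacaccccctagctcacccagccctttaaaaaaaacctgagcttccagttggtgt
A match on either strand was found in 9 of 17 interferon genes with a window (52.9%) and in 2.98% of members.

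For the lysosome and its proton pump, 23 of 25 genes were higher and 2 lower, with a median of 1.55 against 1.83 in the libraries labelled control and 0.02 in fresh fibroblasts, and took 1.86% and 1.88% of reads against 0.521% and 0.515% in cardiomyocytes. Ctsd, a lysosomal protease, stood at 3242 and 3238 with shPtbp1, 603 and 596 in cardiomyocytes, 5432 and 5179 in the libraries labelled control and 3138 and 3136 with shNT. Gpnmb, a membrane glycoprotein of lysosome-rich cells, stood at 2394 and 2417, 22.2 and 18.3, 3629 and 3489 and 2223 and 2238 in the same order. Both were above the target in all day 3 groups and lower with either lentivirus than in the libraries labelled control. Macrophage markers were likewise lower with either lentivirus than in the libraries labelled control: they took 0.157% and 0.162% of reads with shPtbp1, 0.142% and 0.147% with shNT, 0.425% and 0.396% in the libraries labelled control, 0.421% and 0.403% with MGT alone and 0.0955% and 0.0947% in cardiomyocytes, and their part in the lysosome values was not tested. In cholesterol synthesis, 13 of 18 genes were higher, 3 lower and 2 not called, and 13 were below the libraries labelled control.

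Imprinted growth genes were lower in 7 of 11, higher in 2 and not called in 2, with a median of -2.004 against -1.70 in the libraries labelled control and -0.07 in fresh fibroblasts. The noncoding H19 stood at 55.6 and 57.5 against 6145 and 6097, and the growth factor gene Igf2, its neighbour, at 143 and 152 against 5152 and 5152. Fresh fibroblasts held 3993 and 4092 and 3466 and 3539, so both fresh preparations were high and all cultured ones low. Relative to the libraries labelled control, Igf2 was 0.96 higher (adjusted p = 1.66e-13, limma) and H19 0.36 higher. The level was similar with the non-targeting hairpin. Before scaling, Igf2 stood at 138 and 139 CPM with shNT, 140 and 148 with shPtbp1 and 86.5 and 88.7 with MGT alone. H19 stood at 51.0 and 54.9 CPM with shNT, 54.2 and 56.1 with shPtbp1 and 39.6 and 41.1 with MGT alone.

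Genes of other cell types also set the groups apart. All 14 endothelial markers were lower, 13 of them at least 2-fold, and they took 0.0627% and 0.0631% of reads with shPtbp1 against 0.689% and 0.691% in cardiomyocytes. Kdr, the main receptor for vascular growth factor, stood at 10.2 and 9.12 against 550.4 and 542, and Cldn5, of endothelial junctions, at 0.292 and 0.266 against 115 and 117. Fresh fibroblasts held 554 and 569 and 133 and 135, so both fresh preparations were high. The neutrophil, lymphocyte and erythroid markers that were members (5, 4 and 4 of 7 listed each) were lower as well. The erythroid list summed to only 0.953 and 0.883 scaled CPM with shPtbp1, so its members entered through the cardiomyocyte libraries. Markers that entered only that way could only be lower, so these counts are no separate result. Of the 8 fibroblast markers 4 were higher and 4 lower, against 42.4% and 44.4% over all members. Of 9 epicardial markers 2 were higher and 6 lower, and of 7 pericyte and smooth muscle markers 2 were higher and 4 lower.

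Macrophage markers were lower than in cardiomyocytes in 10 of 14, higher in 3 and not called in 1, with a median of -1.02 against 1.62 in the libraries labelled control. All 14 were below the libraries labelled control. With shNT the median was -0.65 and with MGT alone 1.51, so the medians were low in both groups that received a lentivirus. Mrc1, a mannose receptor of macrophages, stood at 32.7 and 29.8 with shPtbp1, 31.8 and 31.8 with shNT, 255 and 249 with MGT alone and 81.4 and 82.8 in cardiomyocytes. Lyz2, a macrophage lysozyme, stood at 1091 and 1141 with shPtbp1, 2243 and 2043 in the libraries labelled control and 187 and 178 in cardiomyocytes. It was the highest of the group relative to the target, at 2.61.

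Beside the libraries labelled control, few genes covered most of the gap. On the side of genes higher in cardiomyocytes, Ptbp2 covered 223%, Txlnb 124%, Fam134b 118%, Capn6 114% and Sptb 105%, followed by Dsp at 98.9%, Corin at 97.4%, Ccdc3 at 92.1%, Pde4d at 87.2% and Enpep at 87.1%. Capn6, a calpain relative, stood at 100.5 and 109 with shPtbp1, 95.1 and 88.3 in cardiomyocytes, 36.5 and 35.4 in the libraries labelled control and 88.2 and 90.2 with MGT alone. Sptb, an erythroid and muscle spectrin, stood at 45.2 and 44.4, 42.9 and 43.1, 18.8 and 20.8 and 37.3 and 36.8. For both, MGT alone also lay above the libraries labelled control. Of the 10 genes that covered most of the gap on the other side, Pik3cg, Ly86, C1qb, C5ar1, Mrc1, Rac2, Vav1, C1qc, Was and Inpp5d, each was also lower with shNT than in the libraries labelled control. C1qb, a complement subunit made by macrophages, stood at 25.5 and 25.7 with shPtbp1, 29.6 and 31.2 with shNT and 200.3 and 189 in the libraries labelled control.

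The 15 largest increases over cardiomyocytes were Scg2, Wisp2, Gpnmb, Tbx5, Bmp3, Myh1, Hsd11b1, Col8a1, Itgbl1, Atp6v0d2, Ptprq, Mlph, Lmod1, Adamtsl2 and S100a4. Scg2, a secretogranin of secretory vesicles at chr1:79434669-79440120 on the minus strand, stood at 266 and 274 with shPtbp1, 0.253 and 0.382 in cardiomyocytes and 249 and 221 in the libraries labelled control (difference 8.38, SE 0.068; adjusted p = 4.42e-25, limma). Hsd11b1, which activates glucocorticoids, stood at 232 and 233, 2.47 and 2.49 and 147 and 158. Both were high in every cultured group and low in fresh cells.

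Among the 15 largest decreases were Hspa1b, Myl3, Hspa1a, Myl2, Ckm, Pln, Beta-s, S100a9, Cd300lg, Ngp, Gpihbp1, Myh7, Ushbp1 and Cldn5. They mix sarcomere and energy genes of the cardiomyocyte with chaperones, vessel genes and blood cell genes. S100a9, a neutrophil calcium-binding protein, stood at 0.229 and 0.182 against 138 and 135, and Gpihbp1, an endothelial protein that holds lipoprotein lipase, at 0.152 and 0.308 against 133 and 130.3. Beta-s, a globin gene, differed between the shPtbp1 libraries, at 0.254 and 6.60, against 538 and 426 in cardiomyocytes.

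Of the 50 genes with most reads in each group, 22 were shared. The 50 of the cardiomyocytes took 16.9% and 17.0% of reads there and 12.8% and 12.4% with shPtbp1, and the 50 of the shPtbp1 cells took 18.4% and 18.0% there and 10.5% and 10.4% in cardiomyocytes. Cardiomyocyte markers took 1.67% and 1.59% of reads in cardiomyocytes and 0.446% and 0.480% with shPtbp1. They took 0.282% and 0.257% in the libraries labelled control and 0.167% and 0.17% in fresh fibroblasts. Tnnt2 alone, at 3695 and 4022 CPM before scaling, made up most of the share with shPtbp1. The median marker difference from cardiomyocytes was -4.80 with shPtbp1, -6.36 in the libraries labelled control and -3.37 in fresh fibroblasts, so by median the fresh fibroblasts were nearest. With shPtbp1, 8 of the 10 were lower than in the target and 2 higher, and 9 were above the libraries labelled control.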

How the data were processed

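There were 12 poly(A) RNA libraries, 2 for each of 6 groups. The deposited table holds CPM, made by the authors from reads aligned to mm10 with TopHat2 2.1.0 and counted with HTSeq 0.6.1p1, per the submitters' processing notes. Neither annotation nor strand setting is stated in those notes or the labels, so reads of overlapping or antisense genes cannot be assigned further. The table has 23423 rows, 27 of them with names turned into numbers.

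CPM values were divided by median-of-ratios size factors (0.966 to 1.06), 0.5 was added, and log2 values of the 13977 genes that reached 1 CPM in 2 or more libraries were fitted with limma 3.58.1 in R 4.3.3 on all 6 groups, with a mean-dependent prior. P-values were adjusted over all of them by Benjamini-Hochberg, and the 13637 members were read from that fit. All values (100%) came out as whole reads within 0.1 read, and edgeR 4.0.16 on the recovered reads called 5929 members higher and 5876 lower. Python 3.11.15 with pandas 2.3.3 and matplotlib 3.10.9 made the summaries and plots.

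Members and gene lists were chosen with earlier results of these data known. Named were the 15 largest differences each way among genes whose libraries did not overlap and whose higher group reached 10 scaled CPM (predicted and clone names left out), up to 4 genes with the largest and 2 with the smallest differences of each list, the delivered factors, Ptbp1, Ptbp2 and the isoform pairs, and 10 genes on each side with the largest share of the gap covered. Ttn, Tpm1, Ldb3, Myom2, Atp2a2, Gja1, Kcnj2, Ankrd1, Egr1, Cryab, Col3a1 and the other genes with a MEF2 match were chosen after their values were seen. A few genes that the rule names are not reported here. Promoter sequences are those of RefSeq, GRCm38.p6. Alternatives were other scalings, pseudocounts, filters, a fit of the compared libraries only, a robust prior, a replicate block, edgeR and leaving out each replicate; a gap measured from fresh fibroblasts was added later.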

Additional observations from a re-analysis of the deposited data

How the results depend on the processing

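Counts of called genes moved by less than 1.5 times under every alternative run, but at least 2-fold the share of calls that were higher went from 37.5% to 50.2% with quantile normalization. Leaving out 1 replicate gave 5524 to 5606 higher and 5862 to 5916 lower members, 1595 to 1631 and 2682 to 2702 at least 2-fold, and, against the libraries labelled control, 3786 to 3932 higher and 3336 to 3602 lower; a group left with 1 library was assumed to vary like the others. With a replicate block, 5763 were higher and 6050 lower (4193 and 3807 against the libraries labelled control). Whether equal replicate numbers pair libraries across groups is not in the labels. Deviations of the cardiomyocyte and shPtbp1 libraries correlated at -0.017 across genes. The correlation was 0.16 between shNT and shPtbp1, and -0.14 between the libraries labelled control and shNT. Relative to the median of all members, no scaling shifted values by -0.098 and quantile normalization by 0.140. The root mean square distance of 1.431 became 1.446 with no scaling, 1.425 with upper-quartile scaling, 1.422 with TMM, 1.404 with quantile normalization, 1.674 and 1.168 with pseudocounts of 0.1 and 2, 1.203 with no filter and 1.442 with a filter at 5 CPM. Measured from fresh fibroblasts, the median share of the gap was 23.4% in place of 3.10% for genes higher in cardiomyocytes and 103% in place of 6.14% for those lower; the set of genes changes with the baseline. Of 288 named genes over 17 settings, 8 values reversed, 59 lost and 50 gained their call. Quantile normalization gave 0.39 for Hcn2, 0.18 for Tnni2, 0.024 for Mx1, 0.00078 for Cd4, -0.084 for Qk and -0.090 for Atf4, and no scaling gave -0.0060 for Qk and -0.0076 for Atf4; the cause was not tested. With 2 libraries a group, the spread is known poorly.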
